A study of Saccharomyces cerevisiae with 4 samples.

Results

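Chromosome 6 is one of the smallest chromosomes of budding yeast, and most of its transcripts were less abundant in tetraploids than in haploids, which is why the chromosome was taken up gene by gene. The files listed 124 open reading frames (ORFs) whose systematic names start with YF, the prefix of this chromosome. Of these, 111 reached 15 reads in 1 or both libraries of each pair of cultures, and 15 of the 111, among them the actin and beta-tubulin genes, were set aside by name. The remaining 96 genes are described here, out of 5680 genes of the whole genome that passed the same filter. Read counts and the fall itself therefore entered the choice of the genes, so the size of the fall is given as a description without a test.

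The libraries came from MATa haploid cells and MATaaaa tetraploid cells of Sigma 1278b, a laboratory strain background that can form filaments, with 2 cultures of each ploidy. The study's methods give the strains as wild type and isogenic, both carrying the ura3-52, leu2::hisG and his3::hisG alleles of the background. Both were grown at 30°C to mid-log phase in synthetic complete medium with 2% glucose, and passaging was kept low to avoid gain or loss of chromosomes. Each ploidy is represented by a single strain, so a feature of that strain and an effect of its ploidy cannot be told apart. The cultures labelled A are called pair A below, and those labelled B pair B.

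A eukaryotic chromosome carries genes of unrelated function, and neighbours in yeast are mostly transcribed from promoters of their own. In yeast, a cell that gains or loses a copy of a chromosome is known to change most transcripts of that chromosome roughly in proportion to the copies, while some genes depart from the proportion. DNA content by chromosome was not measured in these libraries. Chromosome 6 holds genes for the cell cycle (CDC4, CDC14), for the secretory pathway (SEC4, YPT1, SEC53), for the unfolded protein response (HAC1) and for ribosomal proteins (RPL2A, RPL29).

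The 4 libraries held between 3612527 and 4133193 reads on ORFs, without normalization. The 96 genes took 0.681% and 0.684% of these reads in haploids A and B, and 0.567% and 0.593% in tetraploids A and B. Levels are given below as CPM, read counts scaled to library size, with TMM factors as edgeR's correction for library composition. They are relative to the rest of a library, so total RNA in a cell was not measured. The median level of the 96 genes was 25.7 and 31.4 CPM in haploids A and B and 21.9 and 20.7 CPM in tetraploids A and B. Both tetraploid medians lay below both haploid medians.

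The log2 fold changes are tetraploid over haploid, from edgeR's quasi-likelihood fit over all 5680 genes with the pair as a block. The 96 genes had a median of -0.40, with the middle of the distribution between -0.56 and -0.18 (quartiles) and a range from -1.41 to 0.49. Centred on the median of all tested genes, the median was -0.41, a level of 0.752 of that in haploids. The pairs gave nearly the same value, -0.39 (A) and -0.40 (B). The 14 chromosomes other than 3 and 6 had medians between -0.13 and 0.07 in pair A and between -0.06 and 0.03 in pair B. Chromosome 3 was shifted the other way, with medians of 0.27 and 0.23 in the pairs, and 118 of its 153 genes were above 0 after centring. Between cultures of the same ploidy, the 96 genes had a centred median of 0.02 for haploid B over haploid A and -0.03 for tetraploid B over tetraploid A.

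**Figure D1:**
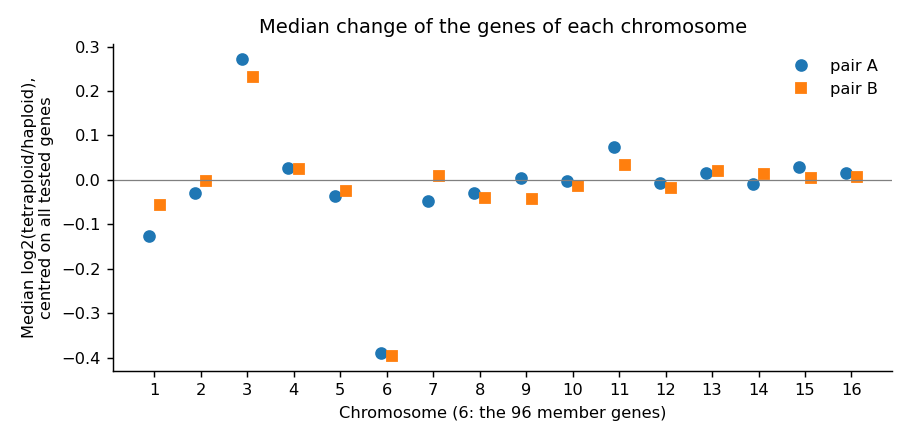
Median centred log2 fold change (tetraploid over haploid, vertical axis) of the tested genes of each chromosome (horizontal axis), with a circle for pair A and a square for pair B; chromosome 6 shows the 96 genes described here. Chromosome 6 lies at -0.39 and -0.40, below the range of -0.13 to 0.07 of the 14 chromosomes other than 3 and 6, and chromosome 3 lies above that range at 0.27 and 0.23.

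Most of the 96 genes shared the fall. After centring, 86 (89.6%) were below 0, and 71 (74.0%) were below 0 in both pairs, against 34.1% of all tested genes. Only 4 were above 0 in both pairs, and 21 had opposite signs in pair A and pair B. In 61 of the 96 genes (63.5%) both tetraploid levels lay below both haploid levels, which was so for 20.5% of all tested genes. In 3 (3.13%) both tetraploid levels lay above both haploid levels, against 21.9% of all tested genes. Nothing is read from the distance to these genome-wide shares, since the chromosome was chosen on the same libraries.

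Tested gene by gene with edgeR's quasi-likelihood test and Benjamini-Hochberg adjustment over all 5680 genes, 24 of the 96 genes (25%) were called lower in tetraploids at an adjusted p under 0.05, and 0 were called higher. In the whole genome 5.35% of the genes were called lower and 2.52% higher. The 24 genes fell by 26.5% (RPL29) to 62.5% (ROG3). Among the 72 genes that did not pass the test, 62 had a centred value below 0, and 1 had an unadjusted p under 0.05 with a higher level. Their lack of a call does not show that they kept their level, since the standard errors of the 96 log2 fold changes ran from 0.12 to 0.41 with a median of 0.18. These calls rest on the block: without it the same test called 0 of the 96 genes in either direction, and 31 were lower at an unadjusted p under 0.05. DESeq2 with the block called 8 lower and 0 higher, with 0 genes higher also at an unadjusted p under 0.05. It gave 64 of the 96 genes no adjusted p, so these could not be called. In the whole genome DESeq2 called 2.34% lower and 0.405% higher. Scaling by library totals, without TMM factors, put the median log2 fold change of all genes at 0.30, against 0.01 with them. It gave 11 lower and 1 higher among the 96 genes, where the whole genome had 2.02% lower and 20.6% higher. Leaving out haploid A, haploid B or tetraploid B, in a fit that could not keep the block, gave 0 calls, and leaving out tetraploid A gave 5.

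Whether a gene follows the fall was asked directly by testing each gene against the median of its own chromosome, which was -0.40 over the 111 genes of chromosome 6. In this test 7 of the 96 genes (7.29%) lay below the chromosome median and 2 (2.08%) above it at an adjusted p under 0.05. Among the 7 are HAC1 and the ORFs YFL032W and YFL031C-A beside it, which may share reads, as described below. Over all 5680 genes, each set against its own chromosome, 5.48% lay below and 2.15% above. The shares of the 96 genes were thus close to those of the genome, and the remaining 87 genes were not distinguishable from the chromosome median at this depth. With the genes set aside by name included, 9 of the 111 genes lay below and 3 above. Within 0.1 of the median on the log2 scale lay 33 of the 96 genes (34.4%), against 25.4% of all genes around the medians of their chromosomes. Within 0.20 lay 48 genes (50%), against 46.8%. Within 0.50 lay 81 genes (84.4%), against 86.0%. The width between the quartiles was 0.37 for the 96 genes and 0.38 to 0.49 on the 14 chromosomes other than 3 and 6.

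**Figure D2:**
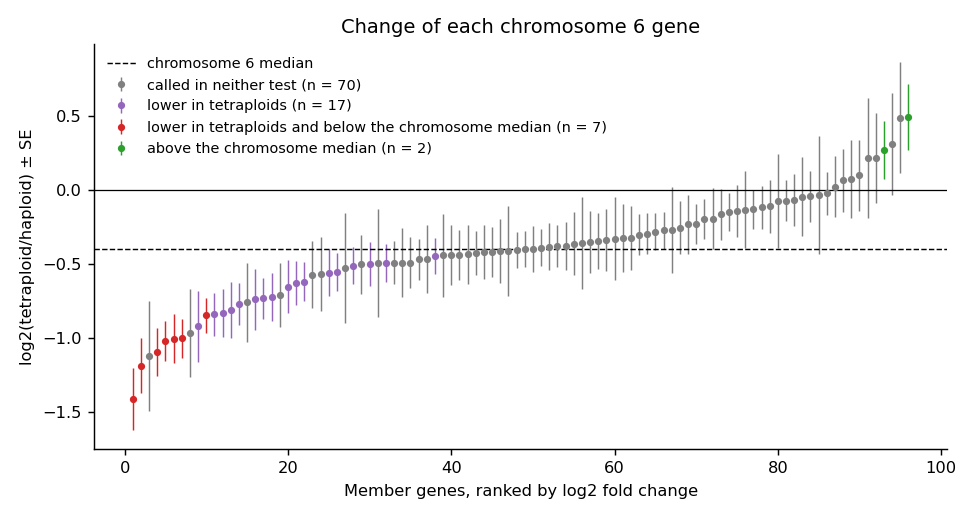
Log2 fold change with its standard error (vertical axis) of the 96 genes ranked from lowest to highest (horizontal axis); the dashed line is the chromosome 6 median of -0.40, and colours give the calls of the tests against 0 and against that median. The 7 genes below the chromosome median are among the 10 lowest of the ranking, and 10 genes have values above 0.

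Among the 7 genes below the chromosome median, ROG3 and GYP8 had the lowest values. ROG3 encodes an alpha-arrestin, an adaptor of the Rsp5 ubiquitin ligase that acts on plasma membrane proteins including the pheromone receptor. Haploids A and B had 31.9 and 18.2 CPM, and tetraploids A and B had 11.3 and 7.31 CPM. The haploid levels differed from each other, but both lay above both tetraploid levels. The log2 fold change was -1.41 (standard error 0.21, edgeR adjusted p = 0.000584), and the departure from the chromosome median was -1.02 (adjusted p = 0.00848). Without haploid A the departure was -0.58.

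GYP8 encodes a GTPase-activating protein for Ypt/Rab GTPases, the switches of vesicle traffic. Its level was 31.9 and 33.2 CPM in the haploid cultures A and B and 15.04 and 13.6 CPM in the tetraploid ones. Cultures of the same ploidy were close to each other, and the fall was about equal in the pairs, at -1.08 (A) and -1.28 (B). The fit gave -1.19 (standard error 0.19, edgeR adjusted p = 0.000963) and a departure of -0.79 (adjusted p = 0.0175). By its name GYP8 (YFL027C) is the neighbour of STE2 (YFL026W), the alpha-factor receptor gene, which was set aside here and fell by 2.25 on the log2 scale.

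HAC1 encodes the transcription factor of the unfolded protein response, made from an mRNA that Ire1 splices outside the nucleus. The mRNA stood at 1103 and 760 CPM in haploids A and B, and at 645 and 323 CPM in tetraploids A and B. The groups did not overlap, although tetraploid A was nearer to haploid B than to tetraploid B. The log2 fold change was -1.002 (standard error 0.13, edgeR adjusted p = 0.000193), with -0.78 in pair A and -1.24 in pair B, and the departure was -0.61 (adjusted p = 0.0119). Its size rested on haploid A and tetraploid B: the departure was -0.26 without the former and -0.16 without the latter, against -1.15 without tetraploid A.

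The ORFs YFL032W and YFL031C-A, which have no name in the reference annotation and bear the numbers beside HAC1 (YFL031W), were also below the chromosome median. YFL032W had 83.2 and 58.2 CPM in haploids A and B and 47.7 and 21.1 in tetraploids A and B, with a departure of -0.70 (edgeR adjusted p = 0.0169). YFL031C-A had 54.5 and 36.6 CPM in haploids and 30.1 and 16.1 in tetraploids, with a departure of -0.61 (adjusted p = 0.0381). In all 3 ORFs haploid A was highest and tetraploid B lowest. Without tetraploid B the departures were -0.19 for YFL032W and -0.22 for YFL031C-A. Counting did not separate the strands, so overlapping ORFs can share reads and the 3 values cannot be told apart as separate genes.

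IRC7, which encodes a beta-lyase that splits sulfur compounds such as cysteine conjugates, reached 89.2 and 75.5 CPM in haploids A and B but 45.6 and 35.9 CPM in tetraploids A and B. The levels of the ploidies were well apart, and the change was alike in the pairs at -0.97 and -1.07. The fit gave -1.02 (standard error 0.14, edgeR adjusted p = 0.000198) and a departure of -0.62 (adjusted p = 0.0119). Its neighbour by name, YFR056C, had 12.7 and 7.10 CPM in haploids against 6.34 and 3.76 in tetraploids. Its value of -0.96 did not pass the test (edgeR adjusted p = 0.0574), and it may share reads with IRC7 in the same way.

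SEC53 encodes phosphomannomutase, which supplies mannose for the glycosylation of secreted proteins. Its 473 and 398 CPM in haploids A and B were well above its 254 and 229 CPM in tetraploids A and B. The log2 fold change was -0.85 (standard error 0.12, edgeR adjusted p = 0.000366), with -0.90 in pair A and -0.80 in pair B, and the departure was -0.45 (adjusted p = 0.0329).

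The 2 genes above the chromosome median were MIC19 and AIP5. MIC19 encodes a subunit of the MICOS complex, which shapes the inner membrane of mitochondria. Pair A went from 9.24 CPM in the haploid to 13.9 in the tetraploid, and pair B from 13.1 to 17.6. Each tetraploid was above the haploid of its pair, but tetraploid A was only slightly above haploid B. Against 0, the log2 fold change of 0.49 (standard error 0.22) did not pass the test (edgeR adjusted p = 0.183), while the departure from the chromosome median was 0.89 (adjusted p = 0.0249). AIP5 encodes a protein that assists formins in actin assembly. Pair A went from 21.4 to 22.1 CPM and pair B from 17.6 to 24.7, with a log2 fold change of 0.27 (standard error 0.19, edgeR adjusted p = 0.413) and a departure of 0.67 (adjusted p = 0.0476). In pair A it was nearly level, at 0.04, and in pair B it was at 0.48.

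Without the block, 0 of the 96 genes departed from the chromosome median by the test, and at an unadjusted p under 0.05 there were 4 below it and 3 above it. DESeq2 with the block called HAC1 alone. It gave no adjusted p for ROG3, GYP8, AIP5 or MIC19, because its own filter set genes with few reads aside.

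**Figure D3:**
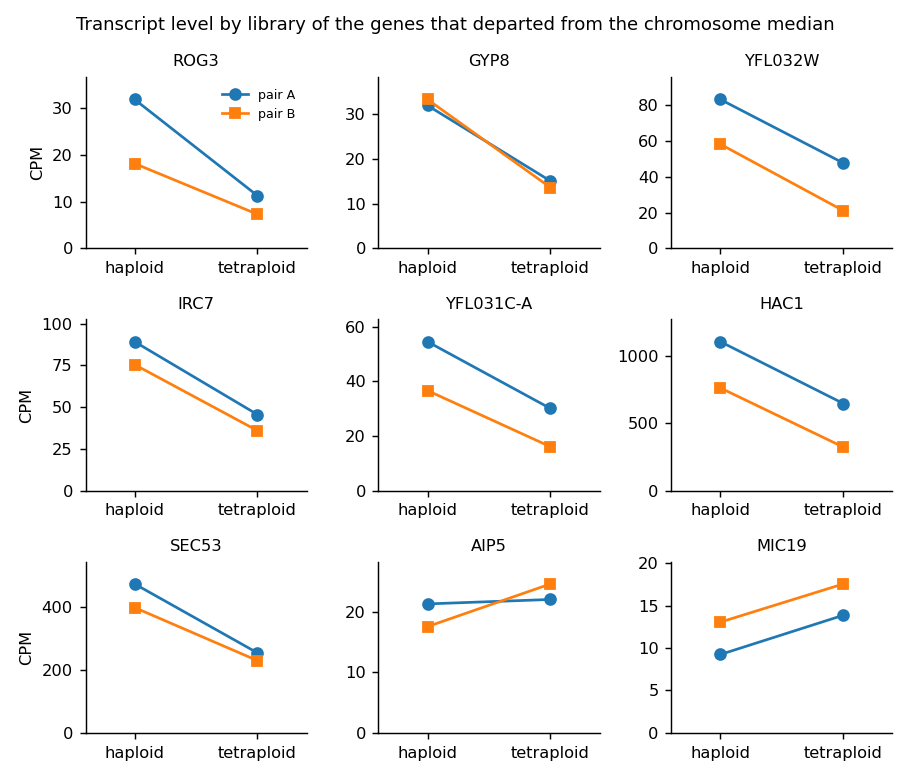
Level in CPM (vertical axis, from 0) in the haploid and tetraploid library of each pair (horizontal axis) for the 9 genes that departed from the chromosome median; lines join the libraries of a pair. In the 7 genes from ROG3 to SEC53 both tetraploid levels lie below both haploid levels, and in AIP5 and MIC19 both lie above.

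The secretory and membrane traffic genes held the most calls of any role. Of the 14, 8 were lower in tetraploids and 6 did not pass the test, with a median log2 fold change of -0.59 against -0.40 for the 96 genes and 0.01 for all tested genes. For this and every role below, the share called lower was 25% over the 96 genes and 5.35% over all tested genes. The role lists were written with earlier results of these data known, so nothing is read from their counts. Besides GYP8 and SEC53, the genes that fell included EMP47, a lectin-like cargo receptor between the endoplasmic reticulum and the Golgi (-0.84). KEG1, which takes part in the synthesis of cell wall glucan, fell by 0.74 (-0.45 after centring without haploid A), and BST1, which removes the inositol acyl chain of GPI anchors, by 0.72. LSB3, a protein of cortical actin patches, fell by 0.62, and RET2, a subunit of the COPI coat, by 0.55. RET2 was even between cultures, with 92.4 and 92.5 CPM in haploids and 63.2 and 62.7 in tetraploids. The Rab GTPases YPT1 and SEC4 had values of -0.39 and -0.27 and did not pass the test (edgeR adjusted p = 0.0648 and 0.193). At the other end of this list were LAM5, a sterol transfer protein (0.02), and IRC6, a factor of clathrin traffic (0.22).

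The nutrient uptake and metabolism genes had a median of -0.49, and 3 of the 15 fell while 12 did not pass the test. Besides IRC7, these were AGX1, an aminotransferase that makes glycine from glyoxylate, at -0.81, and DUG1, a dipeptidase of glutathione breakdown, at -0.73. DUG1 had 134 and 85.4 CPM in haploids A and B and 70.0 and 60.0 in tetraploids A and B, and its centred value was -0.41 without haploid A. The smallest change was that of GNA1, an acetyltransferase of the chitin precursor pathway (-0.14). All 15 were below 0 after centring. Values for THI5, AAD6, the ORF YFL057C and ALR2 are uncertain, because these genes have similar or near-identical relatives elsewhere in the genome and only uniquely mapped reads were used.

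Among the 9 genes of signalling, proteolysis and autophagy, ROG3, CMK1 and RIM15 were lower. CMK1, a calmodulin-dependent kinase, fell by 0.65 and RIM15, a kinase for entry into quiescence, by 0.50. The latter call was at the threshold (edgeR adjusted p = 0.0495). FAB1, the kinase that makes phosphatidylinositol 3,5-bisphosphate on the vacuole, was the highest of the list at 0.07 (edgeR adjusted p = 0.875).

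Of the 10 genes of the cell cycle and of chromosome segregation, 2 fell and 8 did not pass the test. CDC14, the phosphatase of mitotic exit, had 57.7 and 68.1 CPM in haploids A and B and 36.9 and 36.8 CPM in tetraploids A and B. The tetraploid cultures were nearly equal, and the log2 fold change was -0.77 (edgeR adjusted p = 0.00359). MOB2, the activator of the kinase Cbk1 in daughter cell separation, fell by 0.92 (13.1 and 17.9 CPM in haploids, 7.99 and 8.36 in tetraploids). CDC4, the F-box protein that marks cell cycle inhibitors for destruction, had -0.42 (adjusted p = 0.0881). The kinetochore gene CNN1 had the highest value of the list, 0.31, from 11 to 30 reads per library.

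Of the 10 genes of chromatin and transcription, HAC1 and EPL1 fell. EPL1, a subunit of the NuA4 histone acetyltransferase, fell by 0.63 (edgeR adjusted p = 0.0188). The other 8 lay between -0.49 for GAT1, a GATA factor of nitrogen regulation, and -0.02 for CAF16, an ABC ATPase linked to transcription complexes. CAF16 was the most even of these, with 41.1 and 42.6 CPM in haploids A and B and 42.1 and 40.5 in tetraploids A and B. Its departure from the chromosome median, 0.37, did not pass the test (adjusted p = 0.129). PHO4, the factor that activates genes in phosphate starvation, had -0.07.

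Of the 11 genes of RNA processing and translation, 3 fell. The ribosomal protein genes RPL29 and RPL2A had the highest levels of the 96 genes per length of the reference gene, at 2804 and 1875 CPM per kilobase. RPL2A fell by 0.51 and RPL29 by 0.44, and DEG1, a pseudouridine synthase of tRNA, by 0.56. RPL2A had 2328 and 1709 CPM in haploids A and B and 1457 and 1347 in tetraploids A and B, so the groups did not overlap. Its near-identical copy elsewhere in the genome makes the value uncertain, and without haploid A it was -0.30 after centring. RPL22B, which encodes another protein of the large subunit, was nearly level, with 53.2 and 49.1 CPM in haploids and 50.3 and 47.0 in tetraploids (-0.07, edgeR adjusted p = 0.788). Its departure of 0.32 did not pass the test either (adjusted p = 0.171). FRS2, a subunit of the phenylalanyl-tRNA synthetase, lay on the chromosome median itself. It had 163 and 165 CPM in haploids A and B and 125 and 124 CPM in tetraploids A and B, a value of -0.40 that did not pass the test against 0 (edgeR adjusted p = 0.0576). LOC1, which acts in ribosome assembly and in the localization of ASH1 mRNA, had -0.04.

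The 7 mitochondrial genes had the median nearest to 0 of the roles, -0.15, and 1 of them, the mitochondrial chaperone gene MDJ1, was called lower (-0.49, edgeR adjusted p = 0.0300). The gene for the mitochondrial protein FMP32 had -0.57 with 37 to 44 reads per library and was not called. LPD1, the dihydrolipoamide dehydrogenase of mitochondrial keto acid dehydrogenases, had -0.15 with 278 to 417 reads per library, and KGD4, a subunit of one of them, had 0.10. With MIC19 this list held 2 genes above 0.

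The remaining 20 genes, with other or unknown roles, had a median of -0.36, and YFL032W and YFL031C-A were called lower. As given above, the values of these ORFs cannot be told apart from that of HAC1. CSS2 had the third lowest value of all 96 genes, -1.12, but did not pass the test (edgeR adjusted p = 0.0742). With 11.8 and 4.83 CPM in haploids A and B and 3.52 and 3.76 CPM in tetraploids A and B, only haploid A was far from the rest. ZNF1, a zinc cluster transcription factor, and the ORF YFR010W-A had values of 0.22 and 0.49 from 10 to 27 reads per library.

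Changes in the pairs of cultures were alike but not equal. Across the 96 genes, the centred log2 fold changes of pair A and pair B had Pearson's r = 0.52 and Spearman's rho = 0.51, a description over genes that are not independent replicates. CSS2 (-1.71 in pair A and -0.35 in pair B) stood far from equality. PTR3, a part of the amino acid sensor of the plasma membrane, went from 0.27 in pair A to -0.79 in pair B on the same scale, and FAR7, a gene of pheromone arrest, from -0.53 to 0.42.

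**Figure D4:**
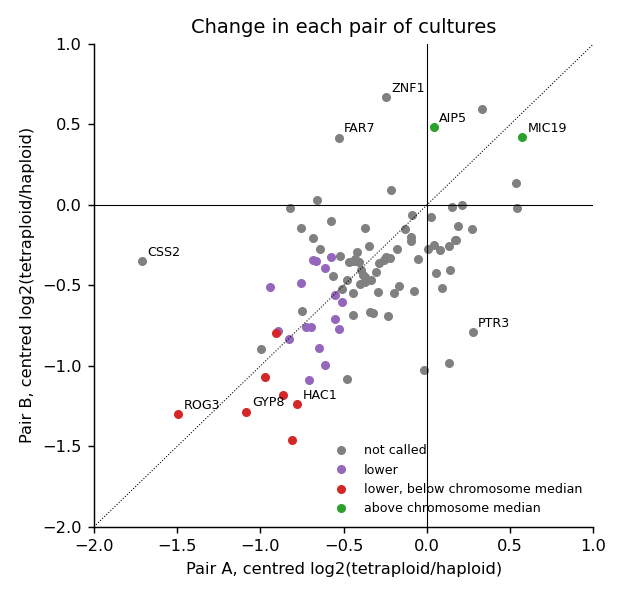
Centred log2 fold change (tetraploid over haploid) of each of the 96 genes in pair A (horizontal axis) and pair B (vertical axis), with equality as a dotted line and colours for the calls. Of the genes, 71 lie below 0 in both pairs, 4 above 0 in both and 21 have opposite signs.

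The fall ran along the whole chromosome. The 51 genes of the left arm had a median of -0.44 and the 45 genes of the right arm -0.33, with 49 and 37 genes below 0 after centring. Taken as 4 consecutive blocks of 24 genes from the left to the right end, the medians were -0.44, -0.41, -0.30 and -0.41. The 10 genes nearest the left telomere had a median of -0.43 and the 10 nearest the right telomere -0.46. Those at the left end include THI5, AAD6, YFL057C and ALR2, whose values are uncertain as given above, so that median is uncertain too. All 10 genes with values above 0 except ZNF1 and LAM5 were on the right arm. These differences between arms and blocks were not tested.

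**Figure D5:**
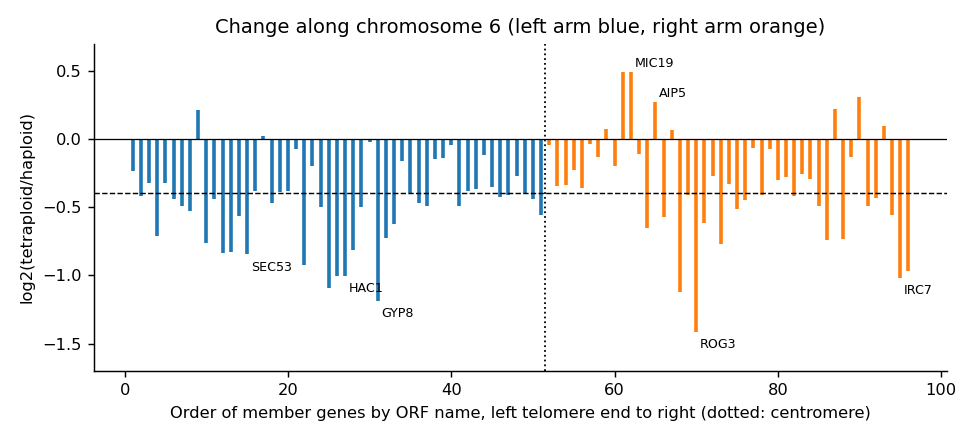
Log2 fold change (tetraploid over haploid, vertical axis) of the 96 genes in the order of their systematic names from the left to the right end (horizontal axis, gene number, not distance), with the left arm in blue and the right arm in orange. Bars run below 0 on both arms, around the dashed chromosome median of -0.40, and HAC1 and its neighbours form 3 adjacent low bars.

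Level went weakly with the size of the fall. Of the 32 genes with the highest mean level, all were below 0 after centring and 14 were called lower (median -0.43). Of the 32 in the middle, 30 were below 0 and 9 were called (median -0.42). Of the 32 with the lowest mean level, 24 were below 0 and 1 was called (median -0.34). The share called lower was 25% over the 96 genes and 5.35% over all tested genes. Calls depend on read depth too, so their numbers are no measure of the size of the fall. The correlation with log2 mean CPM was r = -0.25 (rho = -0.22) over the 96 genes and r = -0.14 (rho = -0.13) over the 5569 tested genes of other chromosomes. Fold change and mean level come from the same libraries, and genes with few reads have wider errors, whose part in this relation was not tested. For the 87 genes found in the reference annotation, the correlation was -0.05 with GC content and -0.0029 with length (Spearman's rho -0.11 and -0.14). Their median GC content was 40.9% against 39.7% for all tested genes found there.

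The genes nearest to the filter were DAK2 and FAR7, with a highest count of 15 in 1 of the pairs, and ZNF1 with 16. Just outside it were IGD1 with 13, YFR034W-A with 12 and YFR052C-A with 10, and in all 13 ORFs of the chromosome did not pass. IGD1 had 16 and 13 reads in haploids A and B and 8 and 6 in tetraploids A and B. Of the 15 genes set aside by name, STE2, HSP12, GSY1, TUB2 and ACT1 were called lower, 0 were called higher, and QCR6, a subunit of respiratory complex III, lay above the chromosome median (departure 0.56, edgeR adjusted p = 0.0156), while STE2 (departure -1.85, adjusted p = 3.2e-07) and HSP12 (-1.63, adjusted p = 0.018) lay below it.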

How the data were processed

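Poly(A) RNA of 2 haploid and 2 tetraploid cultures was sequenced on the Illumina Genome Analyzer 2 for 36 cycles. The authors mapped reads to the Sigma 1278b genome with Bowtie 0.10.0, used unique mappings for differential expression, counted reads on both strands, and deposited whole-number read counts per ORF, without normalization. ORFs missing from a library's list were set to 0, and the lowest listed count was 2. Totals were 3735445 (haploid A), 4133193 (tetraploid A), 3612527 (haploid B) and 4036830 (tetraploid B). Replicates are separate cultures of 1 strain per ploidy.

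Counts were analysed with edgeR 4.0.16 (TMM factors, quasi-likelihood test, blocked on pair, Benjamini-Hochberg adjustment over 5680 genes) in R 4.3.3. Standard errors are the fold change divided by the square root of F. For the test against the chromosome median, the tetraploid offsets of each gene were shifted by the median log2 fold change of its chromosome, whose own error was not carried. Values of a pair are differences of log2 CPM with a prior count of 0.5, centred on all tested genes. The pairs are those of the study, and same-pair libraries deviated together (r = 0.52 across genes). Alternatives were no block, DESeq2 1.42.0, total counts, filters of 5 and 100 reads, another set of genes for the chromosome median, and each library left out, fitted without the block. Scripts were tested on simulated data. Names, lengths and GC content were read from R64, the assembly of strain S288C, which named 87 of the 96 genes, so no coordinates or sequences are given.

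The text names genes called in either test (1 of them is not reported here), the 5 lowest and 5 highest fold changes, the 5 highest levels, the ends of each role list and the genes nearest the filter, and others chosen after their values were seen (RET2, RPL22B, PTR3, FAR7, LPD1 and further list members). The genes and role lists were chosen with earlier results of these data known. Of the genes listed by role, MSH4, HXT10, IGD1, SNZ3, SNO3 and DDI2 were not among the 96.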

Additional observations from a re-analysis of the deposited data

How the results depend on the processing

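The centred median of the genes was -0.41 without the replicate block, -0.41 under scaling by library totals, -0.42 with DESeq2, -0.40 with a filter of 5 reads, -0.37 for the 39 genes with at least 100 reads in all libraries, and between -0.41 and -0.38 with each library left out. With GC content and length fitted out, an alternative chosen after the data were seen, it was -0.37 over 87 genes. Before centring, total counts put the median of all genes at 0.30 and that of the 96 genes at -0.11.

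The calls were less stable. The number called lower was 24, and it was 0 with no replicate block and 11 with total counts (with 1 higher, MIC19). It was 8 with DESeq2, which gave 64 of the 96 genes no adjusted p. With at least 100 reads it was 12 of the 39 genes tested, so this count is not comparable with the 24 of 96. With each library left out, always without the block, it lay between 0 and 5 (5 without tetraploid A and 0 without each of the other libraries). All calls lower under these alternatives were among the 24. In the whole genome 5.35% of genes were called lower and 2.52% higher, against 2.02% and 20.6% with total counts and 0.317% and 0.0704% without the block. The shares were 2.34% and 0.405% with DESeq2, and 5.16% and 2.18% with at least 100 reads. The number below the chromosome median was 7, and it was 0 with no replicate block, 4 with total counts and 1 with DESeq2. It was 2 with at least 100 reads, where ROG3, GYP8 and YFL031C-A were not tested, and between 0 and 2 with each library left out. The number above it was 2, and it was 1 with a filter of 5 reads and 0 with no block, total counts or any library left out. It was also 0 with DESeq2 and with at least 100 reads. There MIC19 and AIP5 could not be called, since DESeq2 gave them no adjusted p and the filter of 100 reads removed them. Taking chromosome medians from genes with at least 100 reads gave 7 and 2 again. No called value changed sign in these alternatives. With each library left out, the remaining lone library of a ploidy is assumed to vary like the others. Part of the lost calls were genes left untested by the filter of 100 reads or left without an adjusted p by DESeq2. Among the genes called lower, both held for ROG3, GYP8, YFL031C-A, MOB2, AGX1, KEG1 and CMK1. Of the genes tested with at least 100 reads, 4 lost their call. The cause of the other losses was not tested. Fits with a library left out also lacked the block, so the part of fewer libraries cannot be told apart from that of the block. Depth limits the 23 genes with a mean under 50 reads most.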

Other observations

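Between cultures A and B of the same ploidy, some role lists of the chromosome had medians away from 0. The 10 cell cycle genes had a centred median log2 ratio of culture B over culture A of 0.31 in haploids and 0.37 in tetraploids. The 15 nutrient uptake and metabolism genes had -0.25 and -0.29, and the 14 secretory genes 0.03 and -0.09. These values were not tested.

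By position, the 10 genes nearest the left telomere had -0.24 for the same ratio in haploids and -0.26 in tetraploids, while the 10 nearest the right telomere had 0.03 and -0.12. The left set includes THI5, AAD6, YFL057C and ALR2, whose values are uncertain.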
